A study of Mus musculus with 12 samples.

Results

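The knockdown of Yap1 was read in 6 of the 12 libraries of the series: 3 libraries from mouse embryonic stem cells (ESCs) that received siRNAs against Yap1 (YAP KD) and 3 from ESCs that received a scrambled siRNA (CTR KD). All libraries labelled as knockdown were taken, and all genes with enough counts were tested, 14606 of the 24480 in the files. The cells were the E14Tg2a line, a mouse ESC line grown without feeders and kept pluripotent in serum with leukaemia inhibitory factor (LIF), and both groups went through the same lipid-mediated transfection, so that the control shares the transfection and the duplex RNA but not its target. The silencing was transient, and a mixture of siRNAs was used without a rescue construct, so effects of YAP loss and of the siRNA sequences themselves cannot be told apart here. Per the labels, total RNA came from 3 independent experiments; the methods speak of independent samples. The other 6 libraries belong to a plasmid overexpression of YAP (YAP OE) with its own plasmid control (CTR OE) and are used for a side-by-side reading and in an alternative fit.

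YAP, the product of Yap1, is a transcriptional coactivator with no DNA-binding domain of its own. It acts mainly through the TEAD factors and is held in the cytoplasm when the kinases of the Hippo pathway phosphorylate it or when junctional scaffolds such as the angiomotins bind it. Several of these inhibitors are themselves YAP targets, which makes the pathway a feedback loop, and in ESCs YAP has been studied both as a factor of self-renewal and as a brake or a help to differentiation.

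TEAD factors recognise the hexamer GGAATG. Read on the other strand of the DNA, it is spelled CATTCC. The RefSeq promoters of GRCm38.p6 (mm10, the build of the files), which run from 250 bases before to 50 bases after a transcription start, were available for 11491 of the genes tested, as 14595 promoters. The hexamer stood in 12.4% of them, in 20.2% of the 420 promoters of genes called lower in YAP KD and in 12.1% of the 420 promoters of genes called higher. The median GC content of these promoters was 60.7%, 61.7% and 60.7%. Of the Yap1, Hippo and target genes that fell (below), 7 had a promoter, and 5 of the 7 held the hexamer. The median GC content of the 7 promoters was 72.3%. Yap1 is the gene that the siRNAs target, so its own fall is the treatment itself. The others come from lists of YAP targets and Hippo genes, and uncalled members of those lists were not compared. The matches of the 5 are shown as a description. Each window has 12 bases either side, reads along the gene's own strand and has the hexamer in capitals.
Yap1, minus strand, chr9:8004720-8004749: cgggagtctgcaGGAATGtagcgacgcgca
Amotl2, plus strand, chr9:102717727-102717756: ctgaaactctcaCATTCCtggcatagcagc
Ajuba, minus strand, chr14:54577830-54577859: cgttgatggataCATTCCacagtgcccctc
Ajuba, minus strand, chr14:54577808-54577837: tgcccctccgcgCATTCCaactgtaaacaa
Ptpn14, plus strand, chr1:189728110-189728139: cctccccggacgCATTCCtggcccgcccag
Wwc2, minus strand, chr8:47990730-47990759: gagcgagctgtgCATTCCtccgccctaccg
Wwc2, minus strand, chr8:47990621-47990650: gggttaagctcaGGAATGtggcggcgagga
Wwc2, minus strand, chr8:47990606-47990635: atgtggcggcgaGGAATGtgcatgcagatg
The match lay 65 bases before the transcription start of the promoter used in Amotl2 and 141 bases before that in Yap1. The Amotl2 window lies inside the gene's full interval (chr9:102717091-102733418), so that start is not the gene's outermost one. Ajuba held 2 matches and Wwc2 held 3. A match is a run of letters in this window and not a binding site, and no binding was measured in these libraries.

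Yap1 itself, at chr9:7931999-8004638, was measured at 116, 134 and 124 CPM (counts per 1000000 counts of the library, after scaling) in CTR KD replicates 1 to 3 and at 58.2, 54.8 and 56.5 CPM in YAP KD replicates 1 to 3. The 3 YAP KD libraries lay close together and far below every control, at 45.3% of the control mean (log2 fold change -1.14, SE 0.06, edgeR quasi-likelihood adjusted p = 4.36e-05). The transcript was therefore reduced and not abolished, and the remaining level was about the same in each experiment. Transcripts of the paralogue TAZ (Wwtr1), which shares most partners with YAP, stood at 24.7 to 25.1 CPM in the controls and 25 to 27.6 CPM in YAP KD, and the groups overlapped.

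The 6 libraries were deep and alike. They held 43183575 to 53356727 expected counts, with 17611 to 18063 genes at 1 count or more, and small RNA entries took 11 to 12.9% of the counts. Correlations and principal components used the 12309 genes tested with a mean of 50 counts or more. Pearson correlations of log2 CPM were 0.9954 to 0.9977 within a group and 0.9937 to 0.9957 between groups. The lowest value within a group thus fell inside the range between groups. Replicates differed by more than counting error (chi-square per degree of freedom 6.24 to 19.8), so no library was a copy of another. The first principal component (42.4% of the variance) separated the groups, with scores of -11.8 to -7.3 in CTR KD and 7.8 to 10.2 in YAP KD. The second (26.5%) ran across both groups: CTR KD replicate 2 (-10.1) and YAP KD replicate 1 (-9.3) stood together at one end and CTR KD replicate 1 (11.03) at the other. Those first 2 libraries also had the highest small RNA shares, 12.7% and 12.9%, against 11 to 12.1% in the other 4. Whether that share has a part in the results below was not tested beyond the alternative fits given at the end.

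**Figure D1:**
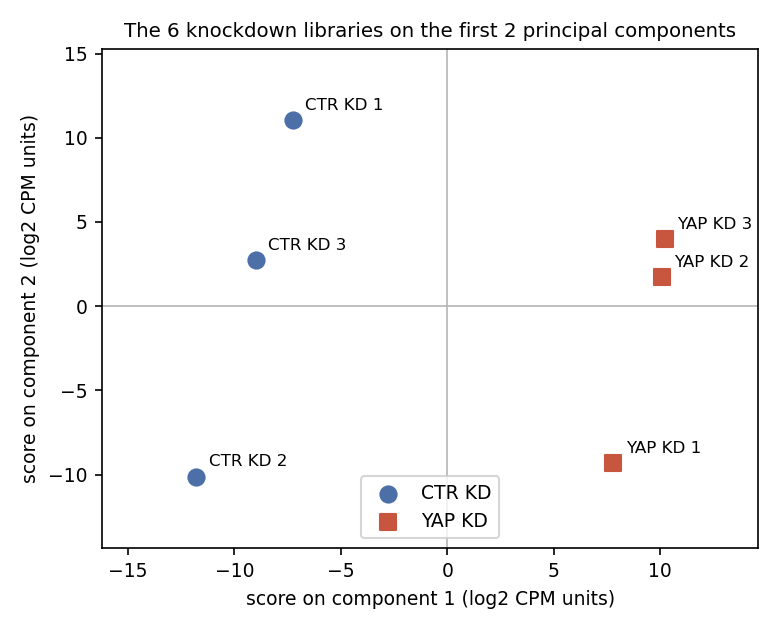
Principal components of log2 CPM over the 12309 genes tested with a mean of 50 counts or more, one point per library. The score on component 1 is on the x axis and that on component 2 on the y axis. CTR KD libraries (circles) lie between -11.8 and -7.3 on component 1 and YAP KD libraries (squares) between 7.8 and 10.2, while component 2 sets CTR KD replicate 2 and YAP KD replicate 1 apart from the rest of their own groups.

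ESC genes were high in every library, and markers of other cells were lower, though some were clearly detected. The POU factor Pou5f1 ran from 986 to 1054 CPM in the controls and from 1039 to 1123 CPM after knockdown, and the naive marker Zfp42 (Rex1) from 742 to 778 and from 674 to 706 CPM. None of the 23 core and naive pluripotency genes was called by the edgeR quasi-likelihood test. However, 11 of the 23 had an unadjusted p under 0.05 (5 higher, 6 lower), a larger share than the 2868 of all 14606 genes tested. Small shifts in both directions are thus not excluded. At most 2 were called in a direction under another scaling, filter or test. Their median log2 fold change was 0.01, with Nanog, the homeobox factor of the ground state, at -0.13 (SE 0.04) and Sox2 at 0.03 (SE 0.05). Of the defining markers of trophoblast, Cdx2, Gata3 and Elf5 stayed at or below 0.409 CPM in all 6 libraries and Eomes ran from 0.85 to 1.61 CPM. The fibroblast markers Lum and Postn stayed at or below 0.114 CPM and the endoderm factor Foxa2 at or below 0.295 CPM. The neuroectoderm markers Pax6 and Sox1 were detected in all 6 libraries, at 16.7 to 17.7 and 2.08 to 3.2 CPM. The primitive endoderm factor Gata4 ran from 1.56 to 2.73 CPM. In bulk RNA a lower level of a gene per cell and fewer cells that express it cannot be told apart.

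YAP KD changed many genes by a little. The test called 802 of 14606 genes, 5.49%, at an adjusted p under 0.05, 396 of them higher (2.71%) and 406 lower (2.78%), where 2868 genes had an unadjusted p under 0.05. Sizes were small, with a median of 0.34 on the log2 scale whatever the sign, and 36 genes moved by 2-fold or more (20 higher, 16 lower). In each of the 802 the 3 YAP KD libraries lay on one side of the 3 CTR KD libraries. Such separation was common: 13.2% of all genes tested had all 3 YAP KD libraries above all controls and 12.7% had them below. The median standard error was 0.27 on the log2 scale under 1 CPM, where 1.44% of genes were called, and 0.05 between 10 and 100 CPM, where 6.35% were called, so a small change in a rare transcript was not detectable.

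**Figure D2:**
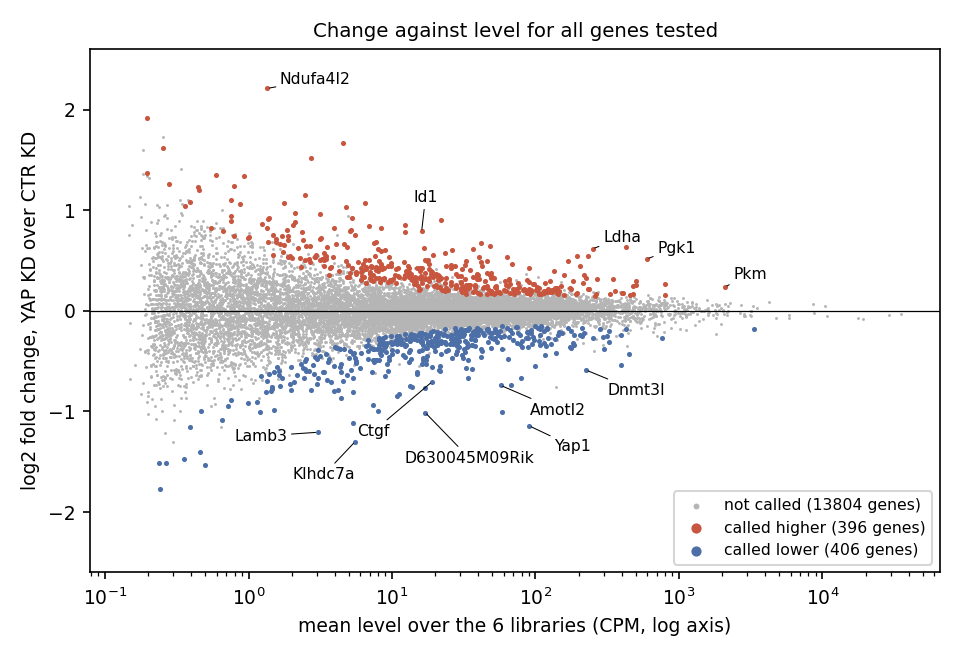
Log2 fold change of YAP KD over CTR KD (y axis) against mean level in CPM (x axis, log scale) for the 14606 genes tested, each point 1 gene, with 1 gene beyond the y axis. The 396 genes called higher and the 406 called lower form a narrow band that widens at low levels, and Yap1, D630045M09Rik and Klhdc7a lie at the lower edge.

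The genes that fell furthest, taken as the 12 lowest fold changes among called genes with a mean of 50 counts or more, were Klhdc7a (-1.30), Lamb3 (-1.21), Yap1 (-1.14), Slc16a9 (-1.12), D630045M09Rik (-1.01), Phldb3 (-1.01), Mme (-1.01), Fgfbp1, Plac9a, Scrn1 (-0.93), Rhox13 (-0.90) and Pof1b (-0.87). Of these, Lamb3 is a laminin chain of epithelial basement membranes, Mme is the membrane peptidase neprilysin, Fgfbp1 is a secreted carrier of fibroblast growth factors, and Pof1b binds actin at epithelial junctions. Mme was at 82, 67.5 and 82.9 CPM in the controls against 36.6, 41.5 and 37.6 CPM. Fgfbp1 was held almost without spread, at 10.8, 10.5 and 10.4 against 5.39, 5.29 and 5.24 CPM (SE of the log2 fold change 0.06, edgeR adjusted p = 0.00011). The YAP KD means were 49.8% and 50.2% of the control means. Plac9a shares its reads with Plac9b, and the sum of the pair was 3.32 ± 0.455 CPM in the controls against 1.91 ± 0.143 CPM (SD, n = 3). Of these 12 genes, 9 were called in each of the 6 fits that leave out 1 library. Plac9a was lost without CTR KD replicate 3, and Phldb3 and Rhox13 were lost without CTR KD replicate 3 or YAP KD replicate 2 or 3, with log2 fold changes of -1.16 to -0.83 and -1.01 to -0.83 over the 6 fits.

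The 12 that rose furthest by the same rule were Ndufa4l2 (2.21), Grin1 (1.67), Crispld2 (1.52), Esam (1.15), Cd37 (1.07), Aurkc (1.07), Prkch (1.03), A2m (0.98), Aldh3a1 (0.96), Zeb2 (0.92), Grm4 (0.92) and Nt5e (0.91). They are mostly scarce transcripts. Ndufa4l2, a mitochondrial protein induced by hypoxia-inducible factors, was at 0.482, 0.413 and 0.557 CPM in the controls and at 1.35, 2.84 and 2.5 CPM in YAP KD, so that YAP KD replicate 1 rose least. Aurkc, an Aurora kinase known from meiosis, was much tighter, at 4.07, 4.17 and 4.36 against 8.41, 8.74 and 9.23 CPM. Zeb2, a repressor of E-cadherin, was at 3.77, 3.15 and 4.07 against 6.45, 7.95 and 6.36 CPM. Without 1 library, 10 of the 12 were called in all 6 fits. Nt5e was lost without YAP KD replicate 2 or 3, and A2m was called in 1 of the 6 fits, the one without YAP KD replicate 1, with log2 fold changes of 0.74 to 1.19 over the 6. Grin1 had expected counts that were not whole in any library, so its reads are shared with another entry.

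By the lowest p-values the list was a different mix of high and low genes. After Yap1, the 12 held D630045M09Rik, Fgfbp1, Cgnl1, Id1, Klhdc7a, Trh, Tek, Scrn1, Aurkc, Dnmt3l and Cth. Cgnl1 (paracingulin, a junction-associated protein) rose from 38.1, 38.8 and 36.4 to 58.4, 58.8 and 59.8 CPM. Trh, which encodes thyrotropin-releasing hormone, rose from 340, 342 and 326 to 538, 527 and 498 CPM. Tek, the angiopoietin receptor, fell from 14, 14 and 13.5 to 7.56, 7.61 and 7.9 CPM. All 3 were called in each of the 6 fits that left out 1 library. Among the most abundant called genes, the constitutive chaperone Hspa8 fell slightly, from 3562, 3581 and 3494 to 3284, 3122 and 3007 CPM, and the pyruvate kinase Pkm rose, from 1925, 1931 and 1917 to 2250, 2349 and 2210 CPM. Hspa8 was lost in 5 of the 6 fits without 1 library and Pkm in 2 of them.

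YAP/TEAD target genes were split. Of 30 on the list, 27 were tested. Of these, 7 fell (25.9%, where 2.78% of all genes tested did) and 1 rose (3.7%, where 2.71% did). The median log2 fold change of the list was -0.08 against 0.01 over all genes tested. Those that fell were Amotl2 (-0.74), Ctgf (-0.71), Wwc2 (-0.46), Ajuba (-0.44), Nuak2 (-0.38), Ptpn14 (-0.38) and Myof (-0.25). Amotl2, at chr9:102717091-102733418, encodes an angiomotin that binds YAP at junctions, and went from 67.9, 78.5 and 69 to 43.2, 42 and 43.6 CPM (SE 0.06, edgeR adjusted p = 0.000169). Ctgf (Ccn2), a secreted matrix protein and a classical readout of YAP, went from 24.1, 24.2 and 22.3 to 15, 14.8 and 13.7 CPM (edgeR adjusted p = 0.000221). Cyr61 (Ccn1), the other classical readout, overlapped between groups at 4.91, 7.34 and 6.73 against 6.07, 6.72 and 5.87 CPM. Nt5e, the ecto-nucleotidase CD73, is on the target list but rose, from 0.811, 0.938 and 1.11 to 1.56, 1.77 and 2.03 CPM. In fits that leave out 1 library the number that fell was 4 to 7, and Amotl2, Ctgf, Wwc2 and Ajuba were called in all 6.

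Of 25 Hippo pathway genes tested, 5 fell (20%, where 2.78% of all genes tested did) and 2 rose (8%, where 2.71% did). Those that fell all code for junctional scaffolds or inhibitors: Amotl2, Wwc2 (a KIBRA-family scaffold), Ajuba (a LIM protein that binds LATS kinases), Ptpn14 (a phosphatase that retains YAP) and Frmd6 (Willin, -0.31). Tnik (0.85) and Map4k4 (0.14), kinases of the MAP4K class, rose. Tnik went from 4.71, 4.88 and 5.31 to 9.23, 9.51 and 8.09 CPM and was called in every fit without 1 library, whereas Map4k4 was called in 1 of those 6. Ajuba went from 129, 144 and 131 to 103, 94.6 and 100.4 CPM. The kinase gene Lats2, a target as well as an inhibitor, was at 3.81, 4.65 and 4.98 against 3.76, 3.91 and 3.58 CPM and was not called (edgeR adjusted p = 0.223). Of the TEAD factors, Tead2 rose by 0.21 (SE 0.04), a call that held in 1 of the 6 fits without 1 library.

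Of 17 genes of DNA methylation and demethylation tested, 2 fell (11.8%, where 2.78% of all genes tested did). D630045M09Rik, at chr13:73344665-73347384 and named Eprn (Ephemeron) in RefSeq, is a long noncoding RNA. It went from 22.8, 22.3 and 23.2 to 11.4, 10.6 and 11.8 CPM, 49.6% of the control mean (edgeR adjusted p = 6.68e-05). Dnmt3l, at chr10:78042287-78063622, encodes the cofactor of the de novo methyltransferases and went from 279, 275 and 261 to 184, 176 and 182 CPM, 66.5% of the control mean (SE of the log2 fold change 0.04, edgeR adjusted p = 0.000122). The spread within each group was a small part of the gap in both, and both were called in all fits without 1 library. Dnmt3a, a catalytic partner of Dnmt3l, was at 84.4, 91.5 and 83 against 101, 96.2 and 95.4 CPM, with no overlap but an adjusted p of 0.0715 by edgeR.

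**Figure D3:**
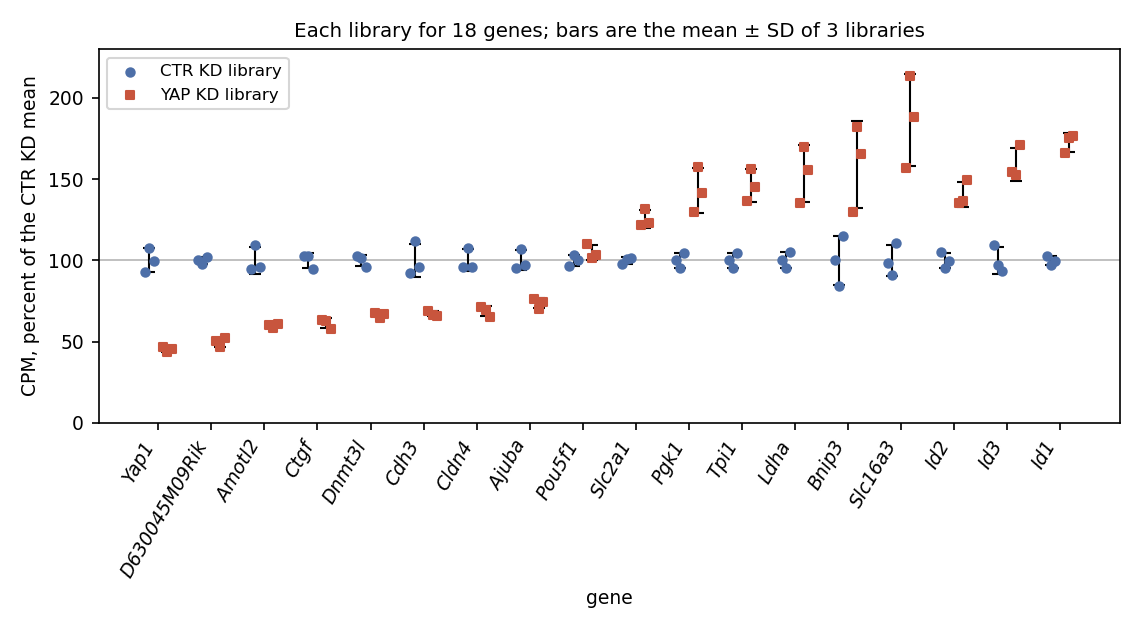
CPM of 18 genes in each library as a percent of the CTR KD mean (y axis), with genes on the x axis; circles are CTR KD libraries, squares YAP KD libraries, and bars the mean ± SD of 3 libraries. Yap1 sits at 45.3% of the control mean and Dnmt3l at 66.5% with little spread, whereas in Ldha, Bnip3 and Slc16a3 YAP KD replicate 1 is the lowest and replicate 2 the highest of the YAP KD libraries.

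Of 30 epithelial junction genes tested, 7 fell (23.3%, where 2.78% of all genes tested did): Cdh3 (P-cadherin, -0.58), Cldn4 (-0.54), Crb3 (a polarity protein, -0.44), Dsg2 (a desmosomal cadherin, -0.43), Spint2 (a protease inhibitor, -0.38), Cldn6 (-0.34) and Esrp1 (an epithelial splicing factor, -0.19). None was called higher by edgeR, where 1 had an unadjusted p under 0.05 and none was called under another scaling, filter or test. The list's median was -0.14, and 28 of the 30 had a negative value. Cldn4, a tight junction claudin, went from 113, 127 and 113 to 83.7, 81.8 and 76.8 CPM. Cdh3 went from 39.5, 47.9 and 41.2 to 29.6, 28.6 and 28.3 CPM. Cdh1, the E-cadherin that holds ESC colonies together, moved much less, at 220, 226 and 229 against 211, 207 and 203 CPM, and was not called (edgeR adjusted p = 0.107). Fits without 1 library called 5 to 9 of the 30 lower, with Cdh3, Cldn4, Crb3, Dsg2 and Cldn6 in all 6.

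The laminin chains moved in opposite directions. Lamb3 fell from 3.53, 4.64 and 4.48 to 2.29, 1.66 and 1.58 CPM, while Lama3, an alpha chain found in the same basement membranes, rose from 2.61, 2.12 and 2.42 to 3.12, 3.7 and 3.5 CPM. Lama5 (-0.34) and the laminin receptor subunit Itga6 (-0.17) fell as well. Of these 4, only Lamb3 was called in all 6 fits without 1 library. Among 38 genes of the actin cytoskeleton and focal adhesions, 5 rose (S100a6 0.49, Anxa2 0.42, Flnc 0.40, Anxa3 0.30, Cnn2 0.19) and 2 fell. These are shares of 13.2% and 5.26%, where 2.71% and 2.78% of all genes tested rose and fell. Without 1 library, Anxa2 was called in all 6 fits, S100a6 in 4, Flnc in 2, Cnn2 in 1 and Anxa3 in 0. S100a11 fell by 0.49 and was called in all 6, so that the S100 proteins S100a6 and S100a11 went apart.

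Genes of glycolysis were the list with the largest share called. All 25 were tested and 13 rose (52%, where 2.71% of all genes did), with a median log2 fold change of 0.21. None was called lower by edgeR, where 1 had an unadjusted p under 0.05 and at most 1 was called lower under another scaling, filter or test. The genes that rose were the glucose carrier Slc2a1 (0.33), the phosphofructokinases Pfkl (0.45) and Pfkp (0.30), the aldolases Aldoc (0.47) and Aldoa (0.27), Tpi1 (0.55), Pgk1 (0.52), Pgam1 (0.26), Pkm (0.24), lactate dehydrogenase Ldha (0.62) and the lactate exporter Slc16a3 (0.90), with Gpi1 (0.21) and the pyruvate dehydrogenase kinase Pdk1 (0.21). Ldha went from 198, 188 and 207 to 267, 335 and 307 CPM (edgeR adjusted p = 0.00228). Slc16a3 went from 15.2, 14.1 and 17.1 to 24.3, 33 and 29.1 CPM (edgeR adjusted p = 0.00197), and Pgk1 from 494, 469 and 514 to 640, 776 and 696 CPM. In each of the 3, YAP KD replicate 1 was the lowest and replicate 2 the highest of the YAP KD libraries, and CTR KD replicate 2 the lowest control. Gapdh did not pass the test, at 0.06 (SE 0.05).

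Of 24 hypoxia-inducible genes outside glycolysis that were tested, none was called lower by edgeR (1 at an unadjusted p under 0.05, none under another scaling, filter or test). The list median was 0.23. Those that rose numbered 11 (45.8%, where 2.71% of all genes tested did). Besides Ndufa4l2 they were Egln3 (a prolyl hydroxylase that marks hypoxia-inducible factors for degradation, 0.83), Bnip3 (a mitophagy receptor, 0.67), Car12 (0.50), Bhlhe40 (0.45), P4ha1 (a collagen prolyl hydroxylase, 0.45), Ak4 (0.37), Ddit4 (an mTOR inhibitor, 0.37), Higd1a (0.31), Ero1l (0.23) and Fam162a (0.23). Egln3 went from 5.24, 6.04 and 6.83 to 8.41, 12 and 11.7 CPM. Bnip3 went from 32.4, 27.3 and 37.1 to 41.9, 58.8 and 53.5 CPM, with the groups apart but each of them wide. Vegfa, another hypoxia target, overlapped at 20.8, 18 and 19.6 against 15, 19.9 and 21.5 CPM. The median log2 difference of the list from the control mean was 0.16, 0.29 and 0.26 in YAP KD replicates 1 to 3, and that of the glycolysis list 0.16, 0.27 and 0.20. Without 1 library, 6 to 10 hypoxia genes and 7 to 13 glycolysis genes rose. Without both libraries numbered 3 none of either list passed the edgeR test (37 genes in all did), while the list medians stayed at 0.27 for hypoxia and 0.22 for glycolysis.

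The core of the hypoxia response element, ACGTG, was looked for after these values had been seen. On the other strand it is spelled CACGT, and the palindrome CACGTG holds both spellings. The core stood in 24.9% of the promoters of all genes tested, in 24% of those of genes called higher, in 21.4% of those called lower, and in 17 of the 31 promoters (54.8%) of the 22 called genes of both lists that had one, where the median GC content was 65.3%. The motif contains CG, so its share moves with base composition. Promoters of the same gene can overlap, so that a site can count more than once, as in Aldoa. Uncalled members of both lists were not compared. A few windows show where it lies in called members that hold a match, with the match in capitals; the table gave no promoter for Ndufa4l2, and that of Tpi1 held no match.
Slc16a3, plus strand, chr11:120949028-120949056: caggcagcggtgACGTGcgcgggggacgt
Egln3, minus strand, chr12:54204087-54204115: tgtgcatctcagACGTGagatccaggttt
Bnip3, minus strand, chr7:138909597-138909626: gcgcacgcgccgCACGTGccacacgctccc
Ldha, plus strand, chr7:46845744-46845773: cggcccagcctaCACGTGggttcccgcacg
Pgk1, plus strand, chrX:106186938-106186966: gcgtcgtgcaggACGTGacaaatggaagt
These are descriptions of the sequence, with no measurement of any factor at the site.

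**Figure D4:**
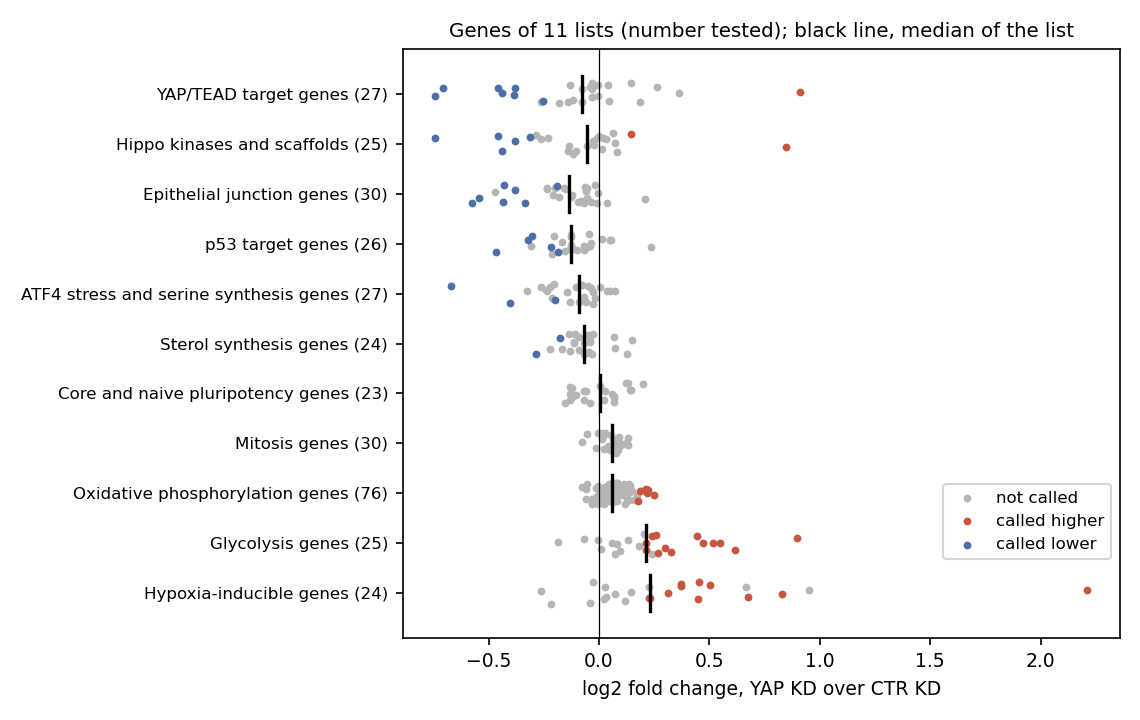
Log2 fold change of YAP KD over CTR KD (x axis) for the tested genes of 11 lists (y axis), each point 1 gene, coloured where called higher or lower, with the median of the list as a black line. Junction, p53 target and ATF4 genes lie mostly left of 0, mitosis and pluripotency genes cluster near 0 with no call, and glycolysis and hypoxia genes have medians of 0.21 and 0.23.

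Of 76 nuclear genes of oxidative phosphorylation 6 rose (7.89%, where 2.71% of all genes tested did). Positive values numbered 63, the median was 0.06, and none of the 6 was called in all fits without 1 library. Mitosis genes had no call by edgeR among 30 (2 at an unadjusted p under 0.05, none under another scaling, filter or test), with 26 positive values and a median of 0.06. Of 35 replication genes, Slbp, which binds histone mRNA, rose by 0.21, a share of 2.86% beside 2.71% of all genes tested, and it was called in 2 of the 6 fits without 1 library. Of 26 p53 target genes 5 fell (19.2%, where 2.78% of all genes tested did): Phlda3 (-0.47), Dcxr (-0.32), Polk (-0.30), Zmat3 (-0.22) and Plk2 (-0.19). Phlda3, an AKT inhibitor, went from 32.3, 41 and 35.9 to 26, 24.4 and 28.8 CPM. Of 26 genes of the Bcl2 family and apoptosis, 3 rose and 3 fell (11.5% each, where 2.71% and 2.78% of all genes tested did). The list as a whole did not shift, with a median of 0.02 and 14 positive and 12 negative values. Among those called, the pro-death genes Bik (0.65) and Bad (0.33) rose. The survival genes Bcl2l1 (-0.31) and Mcl1 (-0.18) fell together with the pro-death Hrk (-0.31). None of the p53 target and Bcl2 family calls named here held in all 6 fits without 1 library.

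Of 27 targets of the stress factor ATF4, Cth (-0.67), Ddit3 (-0.40) and Asns (-0.20) fell. Cth, which makes cysteine from cystathionine, went from 92.5, 99.7 and 98.8 to 63.4, 61.2 and 58.1 CPM and was among the 12 lowest p-values. Of 21 antioxidant targets of NRF2, Cbr3 (-0.40) and Nqo1 (-0.34) fell. The sterol enzymes Hsd17b7 (-0.29) and Cyp51 (-0.18), 2 of 24, and the lipid genes Lpin1 (-0.25) and Scd2 (-0.25), 2 of 15, fell as well. These shares run from 8.33% to 13.3%, where 2.78% of all genes tested fell. The list medians were between -0.10 and -0.07. Without 1 library, Cth and Cbr3 were called in all 6 fits, Ddit3 and Scd2 in 4, Asns in 3, Nqo1 in 2, and Hsd17b7, Cyp51 and Lpin1 in 1 each, the fit without CTR KD replicate 2.

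Signalling genes changed in a few members each. Id1, Id2 and Id3, inhibitors of basic helix-loop-helix factors and readouts of BMP, rose by 0.79, 0.49 and 0.68. They were the calls among 20 genes of the BMP list (15%, where 2.71% of all genes tested rose). Id1 went from 12.2, 11.5 and 11.8 to 19.6, 20.7 and 20.8 CPM (edgeR adjusted p = 0.00011), Id2 from 7.1, 6.46 and 6.71 to 9.14, 9.24 and 10.1 CPM, and Id3 from 6.31, 5.59 and 5.39 to 8.9, 8.79 and 9.84 CPM. All 3 were called in every fit without 1 library. Targets of STAT3, which carries the LIF signal, had Mras (-0.36), Pim3 (-0.36), Pim1 (-0.33) and Cish (-0.53) lower and Socs2 (0.20) higher among 17 (23.5% and 5.88%, where 2.78% and 2.71% of all genes tested were). Of these, Mras and Pim3 were called in all fits without 1 library and Cish and Socs2 in 1 each.

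Among 34 Wnt genes, the ligand Wnt7b (-0.59) fell, a share of 2.94% beside 2.78% of all genes tested. The ligand Wnt4 (0.83), the secreted Wnt inhibitor Notum (0.43) and the receptor Fzd10 (0.32) rose (8.82%, where 2.71% of all genes tested did). Of 29 genes of FGF/ERK signalling, the ERK-responsive factors Etv1 and Etv4 (0.34) and the inhibitors Spry4 (0.24) and Spred1 rose (13.8%). Spry1 (-0.26) fell, a share of 3.45%, near that of all genes tested. In the Nodal list of 20, the activin subunit Inhbb went from 24.9, 31.7 and 30.6 to 42.8, 43.4 and 47.3 CPM (0.61) and Lefty2 rose by 0.26. The convertase Pcsk6 (-0.31) and Gdf3 (-0.18) fell, so that each direction held 10% of the list. Wnt7b, Etv4 and Inhbb were called in all fits without 1 library and the others named here were not.

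Genes of other lineages rose in a few cases without their defining factors. Tfap2c (0.47), an AP-2 factor of trophoblast and germ cells, went from 54.1, 60.4 and 57.2 to 84, 74.4 and 79.4 CPM, and the simple keratins Krt8 (0.37) and Krt19 (0.46) rose, these being 3 of 11 trophoblast genes tested. Nes (nestin, 0.45) and Tubb3 (0.32), 2 of 8 neuroectoderm genes, and Vim (vimentin, 0.53) and Col6a1 (0.79), 2 of 9 fibroblast genes, rose. The summed level of the fibroblast list was 56.7 to 60.7 CPM in the controls and 80.1 to 86.3 CPM in YAP KD, of which Vim was most (50 to 53.1 and 72.2 to 77.6 CPM), with Lum at 0 in 5 of 6 libraries and Col1a1 at 0.153 to 0.756 CPM. Zic2 (0.50) and Etv4 rose among 18 formative and primed genes. The shares that rose were 27.3% (trophoblast), 25% (neuroectoderm), 22.2% (fibroblast) and 11.1% (formative and primed). Over all genes tested 2.71% rose. None of these lists held a gene called lower by edgeR, but members with negative values numbered 4, 3, 3 and 8 in that order. At an unadjusted p under 0.05, 2 trophoblast genes and 4 formative and primed genes were lower. Under another scaling, filter or test at most 1 gene of each of those lists was called lower. Krt8, Tfap2c, Nes, Vim and Etv4 were called in all 6 fits without 1 library.

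In the separate overexpression experiment, with its own controls, 246 genes were called higher (1.66%) and 70 lower (0.473%) of 14804 tested. Of the 406 genes that fell in YAP KD, 80 were called higher in YAP OE and 2 lower. Of the 396 that rose in YAP KD, 22 were called lower in YAP OE and 17 higher. Glycolysis and hypoxia genes made up most of that last group: of the 24 on both lists that rose in YAP KD, 11 were called higher in YAP OE too (Ak4, Bhlhe40, Bnip3, Ddit4, Egln3, Ero1l, Ldha, Ndufa4l2, Pgk1, Slc16a3 and Slc2a1), and 23 had a positive value. Of all 396 genes that rose in YAP KD, 101 had a positive value in YAP OE and 293 a negative one. The log2 fold changes in YAP KD and YAP OE were 2.21 and 1.77 for Ndufa4l2, 0.67 and 0.71 for Bnip3 and 0.90 and 0.47 for Slc16a3. The 7 YAP/TEAD targets that fell in YAP KD all had positive values in YAP OE, 4 of them called. Positive values were common among all 406 genes that fell, at 353 against 52 negative. Amotl2 was at -0.74 and 0.35 and Dnmt3l, outside that target list, at -0.59 and 0.27.

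How firmly the calls stand depended on the libraries used. Fits that leave out 1 library called 574 genes without CTR KD replicate 1, 1019 without CTR KD replicate 2, 298 without CTR KD replicate 3, and 360, 306 and 369 without YAP KD replicates 1, 2 and 3. Of the 802 genes, 245 (117 higher, 128 lower) were called in all 6 of these fits, 62 in none, and 0 turned direction. When both libraries of a number were left out and the remaining 4 were fitted, 371, 666 and 37 genes were called without numbers 1, 2 and 3. The pair left out then showed the same direction in 88.9%, 82.6% and 100% of those genes, against 56.2%, 55.9% and 66.1% of all genes tested.

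**Figure D5:**
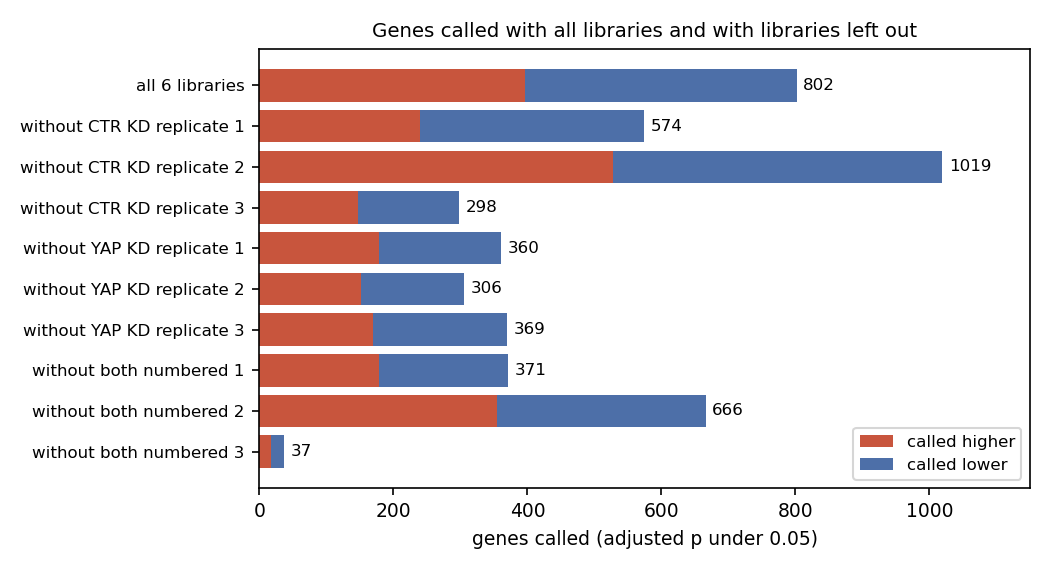
Number of genes called (x axis) with all 6 libraries, without each library in turn, and without both libraries of a number (y axis), split into genes called higher and lower. The number runs from 37 without both libraries numbered 3 to 1019 without CTR KD replicate 2, with 802 from all 6.

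The mean transcript length that the files give for each gene, which moves when the mix of its transcripts moves, was compared in 3447 genes. None was called by limma (0%), 205 had an unadjusted p under 0.05, and no alternative gave a call. The lowest adjusted p was that of the matrix protein fibronectin (Fn1), 0.12 by limma, at 8323 ± 1.3 bases in the controls against 8345 ± 1.12 bases (SD, n = 3).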

How the data were processed

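Total RNA of E14Tg2a ESCs was sequenced by the authors on an Illumina platform. Per the labels, reads were processed with STAR, RSEM and edgeR on mm10; versions are not given in the sources used here. The deposited file of each library holds expected counts per gene, in which RSEM splits reads that match several genes, so values need not be whole (entries with a fraction held 22.5 to 24.1% of the counts), and, as another deposited column, a mean transcript length in bases. Total RNA libraries keep small RNA entries, which take part in the library totals. Strand handling is not given in the sources used here, so a gene and an overlapping antisense gene may share reads.

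Expected counts were rounded and filtered with filterByExpr (minimum count 10), scaled by TMM and tested between the 3 YAP KD and 3 CTR KD libraries with the two-sided quasi-likelihood F test of edgeR 4.0.16 (R 4.3.3), with group as the only term. Adjusted p-values are Benjamini-Hochberg over all 14606 genes, and a gene was called under 0.05. CPM values use TMM-scaled totals, and log2 CPM a prior count of 2. P-values set the difference between groups against the spread between the 3 samples of a group, which edgeR estimates partly from all genes. Lengths were tested with limma 3.58.1 in genes with a mean of 50 counts or more. Gene lists are given by counts and medians, with no set test. The 12 libraries of both experiments served in an alternative fit, and the overexpression was fitted on its own 6. Scripts were tested on simulated data.

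Genes named are members of the lists, the 12 highest and 12 lowest fold changes among called genes with 50 counts or more and separate groups, the 12 lowest p-values, the 12 called genes with the highest CPM, the 3 genes that depart most in each library and the 5 lowest p-values for length. The members and lists were chosen with earlier results of these data known. RefSeq matched 14006 genes by symbol and 560 by synonym, and 40 were not matched. Alternatives were 4 other scalings, 2 other filters, DESeq2 1.42.0, 2 other edgeR tests, limma-voom, a fit over 12 libraries, a replicate block, whole counts only and libraries left out. A few list members are not reported here.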

Additional observations from a re-analysis of the deposited data

How the results depend on the processing

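The number of genes called in YAP KD moved by over 1.5 times under 3 settings that keep all libraries: 1210 by edgeR's likelihood ratio test (620 lower), 1261 in a fit over all 12 libraries (595 higher, 666 lower), and 193 with the replicate block (97 higher, 96 lower), of which 192 were among the 802. Over the fits with libraries left out it ran from 37 to 1019 in all, from 17 to 528 higher and from 20 to 491 lower. It was 719 by DESeq2, where 1699 genes had no adjusted p, and 726 to 870 under the other scalings and filters. The small RNA share as a covariate, chosen after seeing the data, gave 876, and leaving out CTR KD replicate 2 and YAP KD replicate 1 together gave 698. Libraries with the same number did not deviate together (correlations -0.40, -0.27 and 0.02), and the numbers were not used as pairs. Between different numbers the correlations ran from -0.18 (CTR KD replicate 2 with YAP KD replicate 3) to 0.42 (CTR KD replicate 2 with YAP KD replicate 1). With 3 libraries in a group they cannot show which libraries came from the same experiment. No called gene named here turned direction in any setting. Of uncalled genes named, Cyr61 (-0.03) went to 0.022 with that covariate and to 0.10 without those 2 libraries, and from -0.19 to 0.090 over the other libraries left out. Vegfa (-0.04) went to 0.038 without those 2 and ran from -0.16 to 0.14, and Sox2 (0.03) from -0.028 to 0.081. Depth limits calls below 1 CPM.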

Other observations

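Several gene groups not described above also held calls. Of 15 two-cell-stage genes tested, Zscan4a (-0.38) and Zscan4f (-0.39) fell (13.3%, where 2.78% of all genes tested did) and the median was -0.38. Zscan4a was called in 1 and Zscan4f in 2 of the 6 fits without 1 library. These copies share reads, and the summed Zscan4 family was at 39 ± 4.12 CPM in the controls against 29.8 ± 0.281 CPM (SD, n = 3). Of 27 imprinted genes, Peg12 (0.53), Ndn (0.45), Cdkn1c (0.43) and Peg3 (0.22) rose (14.8%, where 2.71% of all genes tested did). Sgce (-0.50), Grb10 (-0.22), Phlda2 (-0.21) and Mest (-0.18) fell (14.8%, where 2.78% did). Of these 8, only Cdkn1c was called in all 6 fits without 1 library, and Peg12, Sgce, Grb10 and Mest were called in 1 each. Cdkn1c, a cyclin-dependent kinase inhibitor, went from 12.6, 13.8 and 13.6 to 17.1, 16.9 and 19.5 CPM. Among 30 interferon-stimulated and sensing genes, the sensor Oas1a (0.47) and Parp14 (0.43) rose (6.67%, where 2.71% of all genes tested did). The peptide transporter Tap1 (-0.62) fell, a share of 3.33% beside 2.78% of all genes tested. All 3 were called in all 6 fits without 1 library. Of 86 ribosomal protein genes 3 were called, a share of 3.49% beside 5.49% of all genes tested. The call with the largest size was Rps16, which went from 455, 544 and 553 to 372, 388 and 392 CPM.

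The next 2 genes, Cphx1 and Lars2, were singled out after their values had been seen. Cphx1 was called lower at -7.44 on the log2 scale, but it shares reads with Cphx2 and Cphx3, and the sum of the family was 7.15 ± 0.339 CPM in the controls against 6.27 ± 0.0552 CPM (SD, n = 3). In YAP KD replicate 3 Cphx2 was at 0.18 expected counts against 262.1 and 277 in the other YAP KD libraries. Lars2, a mitochondrial leucyl-tRNA synthetase, was at 199.6, 177 and 146 CPM in the controls and at 71.9, 153 and 83.4 CPM in YAP KD, and was not called (edgeR adjusted p = 0.107).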
